A study of Arabidopsis thaliana with 12 samples.

Results

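The A, B and D cyclins and the cyclin-dependent kinases of the A, B and D types were followed in Arabidopsis thaliana seedlings before and after heat. Of the 32833 genes in the deposited table, 40 were taken: 39 by a gene symbol that begins with CYCA, CYCB, CYCD, CDKA, CDKB or CDKD, and 1 by its description alone. They were 10 A cyclins, 11 B cyclins, 10 D cyclins, 1 CDKA, 4 CDKB and 3 CDKD genes. The one taken by description, AT1G71150, is annotated as a cyclin-D1-binding protein and is not itself a cyclin. The 12 libraries were made from poly(A) RNA of Col-0 seedlings aged 10 days, 3 for each of 4 groups. Wild type and the mutant atdamt1 were each sampled in control, labelled 0 h, and under heat, labelled 2.5 h. The study is about METTL4, named in its title, and heat. With no unheated group at 2.5 h, heat and elapsed time cannot be told apart. Separate cultures for the replicates are not mentioned in the labels, and the p-values below cover only the spread among libraries, which may be technical.

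Cyclins are the regulatory partners of the cyclin-dependent kinases, and the pair that is active changes as a cell goes through its division cycle. In plants, D cyclins with CDKA respond to sugar and hormones and phosphorylate the retinoblastoma-related protein RBR1, which frees E2F factors to switch on S-phase genes. A3 cyclins are known from S phase, A1 and A2 cyclins from S phase to mitosis, and B cyclins with the plant-specific CDKB kinases from the G2 phase and mitosis. CDKD kinases activate other cyclin-dependent kinases by phosphorylation. Transcription of B cyclins and other mitotic genes is known to depend on three-repeat MYB factors, which bind a promoter element with the core AACGG.

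The 300 bases before the annotated gene start (TAIR10.1, RefSeq annotation) were searched on both strands for AACGG and for the heat shock element unit GAANNTTC. AACGG occurred in 23.4% of 27443 such windows of protein-coding genes, and 4.53% held at least 2 matches. It occurred in 7 of 11 B cyclins, 6 of them with at least 2 matches, in 5 of 10 A cyclins, in 1 of 10 D cyclins, in 1 of 4 CDKB genes and in no CDKA or CDKD gene. CYCB1-2 held 4 matches, which begin 143, 69, 43 and 11 bases before the gene start. CYCA1-1 and CYCA3-1 held 2 matches each, and those of CYCA3-1 abut as CCGTTAACGG. GAANNTTC occurred in 11.5% of all windows and in CYCA2-2, CYCB1-3, CYCB1-4 and CDKB1-1 among the 40 genes. Matches also occurred in genes described below only by ranges, such as CYCB1-1 and CYCA2-3. The 3 promoter stretches are shown because they carry the matches in genes whose values in each library are given below. Each is written 5′ to 3′ on the strand of its gene and ends at the last base before the gene start, with AACGG (or CCGTT, its complement) in capitals. They lie at chr5:1861704-1861853 on the minus strand (CYCB1-2), chr1:16777353-16777572 on the minus strand (CYCA1-1) and chr5:17292702-17292951 on the plus strand (CYCA3-1). A match describes the letters only and is not evidence of binding.
CYCB1-2: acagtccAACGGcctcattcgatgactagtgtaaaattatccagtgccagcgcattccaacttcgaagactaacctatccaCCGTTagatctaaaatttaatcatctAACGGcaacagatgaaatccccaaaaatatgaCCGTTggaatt
CYCA1-1: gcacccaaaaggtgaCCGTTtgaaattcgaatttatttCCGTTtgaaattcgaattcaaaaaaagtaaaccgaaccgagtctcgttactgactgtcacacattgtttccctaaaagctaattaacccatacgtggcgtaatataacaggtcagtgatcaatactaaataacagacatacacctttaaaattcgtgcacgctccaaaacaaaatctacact
CYCA3-1: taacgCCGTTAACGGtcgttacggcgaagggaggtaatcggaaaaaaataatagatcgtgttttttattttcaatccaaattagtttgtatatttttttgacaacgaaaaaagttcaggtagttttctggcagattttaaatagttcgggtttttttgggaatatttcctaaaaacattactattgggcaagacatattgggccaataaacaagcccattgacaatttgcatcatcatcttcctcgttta

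Levels are RPKM values as the authors deposited them, that is, reads divided by gene length and library depth, so genes can be set side by side per length. In wild-type control the summed level was 73.4 ± 11.5 RPKM for D cyclins, 42.3 ± 8.25 for A cyclins, 35.2 ± 14.6 for B cyclins, 29.1 ± 12.9 for CDKB, 27.0 ± 3.01 for CDKA and 14.0 ± 2.97 for CDKD (SD, n = 3). D cyclins led in every wild-type control library, while the range of B cyclins (19.6 to 48.6 RPKM) overlapped those of A cyclins, CDKB and CDKA. The atdamt1 control libraries held 69.5 ± 4.74 RPKM for D cyclins, 38.1 ± 2.93 for A cyclins and 27.8 ± 7.16 for B cyclins (SD, n = 3). Of the 40 genes, 34 reached 1 RPKM in at least 3 libraries and were tested: 8 A cyclins, 9 B cyclins, 9 D cyclins and all 8 kinases. CYCA2-1, CYCB1;5, CYCB2-5, CYCD7-1 and AT1G71150 fell short of that level, and CYCA3-3 was listed at 0 in every library. CYCA3-3 lies between CYCA3-2 and CYCA3-4 on chromosome 1, where the 3 neighbours all lie on the plus strand, from 17300691 to 17308848 (TAIR10.1).

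Depth was 21720000 to 23519000 reads per library, and the first principal component, with 79.4% of the variance, separated heat from control. AT1G19340, the METTL4 homolog, was listed at 2.5 to 3.1 RPKM in wild-type control and 1.3 to 1.54 in wild-type heat, against 0.808 to 1.29 in atdamt1 control and 0.146 to 0.475 in atdamt1 heat. The seedlings carried leaf and root RNA. The 2 leaf markers summed to 27391 to 34578 RPKM over all libraries but moved in opposite directions with heat. Mean RBCS1A went from 15375 to 11569 RPKM in wild type and from 17919 to 11522 in atdamt1. Mean LHCB1.3 went from 13563 to 19412 RPKM in wild type and from 14217 to 21079 in atdamt1. The 2 root markers fell from 1567 to 2049 RPKM in wild-type control to 180 to 426 in heat, and from 1329 to 2033 to 321 to 374 in atdamt1. The 3 stomatal lineage markers, all above 0 in each group, moved from 6.73 to 9.51 RPKM to 2.92 to 3.71 in wild type and from 4.76 to 10.7 to 2.7 to 4.5 in atdamt1. The 5 meristem markers summed to 1.45 to 4.51 RPKM, with WUS at 0 in all but the wild-type heat group and CLV3 at 0 in that group. Most of this sum was STM, with group means of 1.65 to 2.44 RPKM. WUS, CLV3, PLT1 and PLT2 had group means of at most 0.399 RPKM. The 2 flower markers held 1.66 to 11.5 RPKM and the 2 seed markers at most 0.247 RPKM. Chloroplast-encoded genes held 0.32% to 1.07% of the RPKM total in control libraries, 0.39% to 4.05% in wild-type heat and 3.17% to 6.01% in atdamt1 heat. The chloroplast share was tried as a covariate, with the outcome given below, and the part of the marker shifts in the results was not tested. In whole seedlings, fewer dividing cells and less RNA per cell cannot be told apart.

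**Figure D1:**
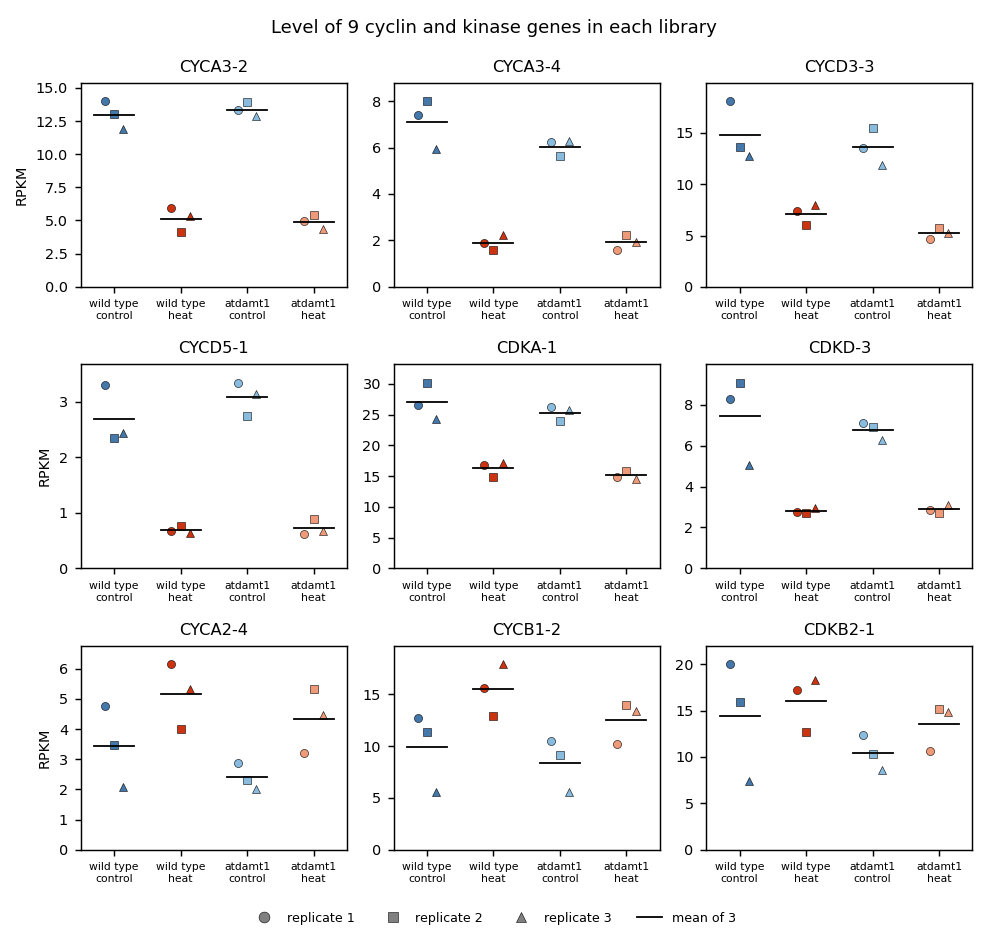
RPKM (vertical axes, from 0) of 9 genes in each of the 12 libraries, by group, with the replicate as the symbol and the mean of 3 as a line. CYCA3-2, CYCA3-4, CYCD3-3, CYCD5-1, CDKA-1 and CDKD-3 were lower in every heat library than in every control library, while CYCA2-4, CYCB1-2 and CDKB2-1 were not.

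In wild type, the S-phase A3 cyclins, most D cyclins, CDKA-1 and the CDKD kinases were lower after heat relative to the library, while no mitotic B cyclin or CDKB kinase passed the threshold in either direction. Of the 34 tested genes 14 fell and 0 rose, against 52.6% and 9.41% of all 17628 genes tested (limma on log2(RPKM + 1), Benjamini-Hochberg adjusted p under 0.05 over all genes). The 14 were 4 of 8 A cyclins, 6 of 9 D cyclins, CDKA-1 and all 3 CDKD genes. Of these, CYCD4-2, CYCD5-1, CYCD6-1 and CDKD-1 reached 1 RPKM in control libraries only and so entered the test through the group where they were high, and the count is a description. None of the 9 B cyclins and none of the 4 CDKB genes was among them. The share that fell was below that of all genes. RPKM is relative to the library, and the median change of all genes was -0.41 on the log2 scale in wild type and -0.44 in atdamt1, so a change near these values is the change of a typical gene.

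The A3 cyclins fell furthest among the cyclin subfamilies with more than 1 tested gene, with a median log2 change of -1.19 in wild type and -1.29 in atdamt1 (3 genes). CYCA3-2, the A cyclin with the highest mean level, was measured at 14.0, 13.0 and 11.9 RPKM in wild-type control and 5.96, 4.14 and 5.35 in heat, and at 13.3, 13.9 and 12.9 in atdamt1 control and 4.93, 5.45 and 4.33 in heat. Every heat library lay below every control library, and the ratio of means was 0.398 in wild type and 0.367 in atdamt1. It fell by 1.19 ± 0.12 in wild type (SE, limma, adjusted p = 8.52e-06) and by 1.29 ± 0.12 in atdamt1 (adjusted p = 4.51e-06). CYCA3-4 held 7.42, 8 and 5.93 RPKM in wild-type control and 1.90, 1.57 and 2.24 in heat, and 6.22, 5.63 and 6.27 in atdamt1 control and 1.60, 2.22 and 1.91 in heat. Again no heat value came near a control value, and the falls were 1.48 ± 0.13 (SE, limma, adjusted p = 3.19e-06) and 1.28 ± 0.13 (adjusted p = 8.22e-06). CYCA3-4 overlaps a gene on the opposite strand, and the strand setting of the authors' counting is not given in the sources used here. CYCA3-1, the A3 cyclin with the paired AACGG match, held 5.37, 3.76 and 3.69 RPKM in wild-type control and 1.53, 1.49 and 2.01 in heat, and 4.69, 4.97 and 3.14 in atdamt1 control and 1.55, 1.34 and 0.628 in heat. Its groups did not overlap in either genotype, and it fell by 0.97 ± 0.20 (SE, limma, adjusted p = 0.00126) and 1.29 ± 0.20 (adjusted p = 0.000158). Quantile scaling ended the wild-type call (-0.43, adjusted p = 0.121).

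CYCA1-1, an A1 cyclin with 2 AACGG matches, held 7.6, 6.64 and 4.47 RPKM in wild-type control and 3.87, 2.42 and 3.73 in heat, and 4.78, 6.49 and 4.23 in atdamt1 control and 2.02, 2.25 and 2.44 in heat. The lowest control library stood above the highest heat library in both genotypes. It fell by 0.73 ± 0.19 (SE, limma, adjusted p = 0.00633) in wild type and by 0.92 ± 0.19 (adjusted p = 0.00145) in atdamt1. In wild type it did not pass with median-of-ratios (-0.32, adjusted p = 0.146) or quantile scaling (-0.22, adjusted p = 0.384). In atdamt1 it did not pass with quantile scaling (-0.42, adjusted p = 0.0885) or the chloroplast covariate (-0.60, adjusted p = 0.201). The other 4 tested A cyclins did not pass the threshold in wild type. CYCA1-2, known as TAM for its role in meiosis, and CYCA2-2 were low, at 0.62 to 1.89 RPKM over all libraries. CYCA2-3, which overlaps a gene on the opposite strand, held 3.35 to 6.57 RPKM in wild-type control and 3.83 to 5.98 in heat.

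CYCA2-4, whose subfamily acts with CDKB1 against early entry into endoreduplication, was the one gene of the 34 that rose. It held 4.76, 3.47 and 2.07 RPKM in wild-type control and 6.15, 4 and 5.33 in heat, groups that overlap, and 2.86, 2.30 and 2.03 in atdamt1 control and 3.21, 5.31 and 4.46 in heat, groups that do not. The difference was 0.64 ± 0.23 in atdamt1 (SE, limma, adjusted p = 0.0274) and 0.51 ± 0.23 in wild type (adjusted p = 0.0718). The call in atdamt1 was lost without atdamt1 control replicate 2 (adjusted p = 0.0658) or 3 (adjusted p = 0.0802), without atdamt1 heat replicate 2 (adjusted p = 0.102) or 3 (adjusted p = 0.0681), and with the chloroplast share as a covariate (adjusted p = 0.0585).

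Among D cyclins, the same 6 genes passed the threshold as lower in both genotypes. CYCD3-3, a cytokinin-responsive D3 cyclin, held 18.1, 13.6 and 12.8 RPKM in wild-type control and 7.35, 6 and 8.02 in heat, and 13.5, 15.5 and 11.9 in atdamt1 control and 4.68, 5.69 and 5.22 in heat. The heat libraries of both genotypes stood below all controls. It fell by 0.95 ± 0.15 (SE, limma, adjusted p = 0.000167) and by 1.24 ± 0.15 (adjusted p = 2.35e-05). CYCD5-1, which has been linked to natural variation in endoreduplication, held 3.30, 2.34 and 2.43 RPKM in wild-type control and 0.673, 0.759 and 0.633 in heat, and 3.34, 2.74 and 3.14 in atdamt1 control and 0.623, 0.892 and 0.678 in heat. It reached 1 RPKM in the control libraries only, and its ratio of means, 0.256 in wild type and 0.238 in atdamt1, is given as a description. CYCD2;1, a sucrose-responsive D cyclin, held 13.9, 12.4 and 14.0 RPKM in wild-type control and 9.37, 8.17 and 8.14 in heat, and 13.1, 14.2 and 14.5 in atdamt1 control and 8.53, 9.35 and 6.92 in heat. Its groups did not overlap, and its falls of 0.60 ± 0.11 (SE, limma, adjusted p = 0.000637) and 0.69 ± 0.11 (adjusted p = 0.0002) were near the median fall of all genes. Under median-of-ratios scaling they were -0.14 (adjusted p = 0.301) and -0.20 (adjusted p = 0.138), and the calls were also lost under quantile scaling and, in atdamt1, with the chloroplast share as a covariate.

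The remaining 3 of these D cyclins were low. CYCD4;1, known from pericycle divisions, held 2.44, 2.24 and 1.60 RPKM in wild-type control and 1.17, 1.19 and 1.14 in heat, and 1.70, 2 and 1.36 in atdamt1 control and 0.424, 0.889 and 0.758 in heat. CYCD4-2 held 1.24, 1.06 and 0.663 RPKM in wild-type control and 0.130, 0.187 and 0.476 in heat, and 0.991, 1.26 and 0.636 in atdamt1 control and 0.156, 0.369 and 0.262 in heat. CYCD6-1, a target of SHORT-ROOT and SCARECROW in the divisions that form the root ground tissue, held 1.72, 2.25 and 0.849 RPKM in wild-type control and 0.665, 0.664 and 0.838 in heat, and 1.90, 0.992 and 1.31 in atdamt1 control and 0.559, 0.886 and 0.475 in heat. All heat libraries of these 3 genes lay below the controls of their genotype, narrowly so for CYCD6-1 in wild type, and CYCD4-2 and CYCD6-1 reached 1 RPKM in control libraries only. CYCD4;1 fell by 0.50 in wild type (limma, adjusted p = 0.0116) and by 0.67 in atdamt1 (adjusted p = 0.00195). Median-of-ratios (-0.20, adjusted p = 0.27) and quantile scaling (-0.02, adjusted p = 0.938) each ended the wild-type call. Quantile scaling (adjusted p = 0.0885) and the chloroplast covariate (adjusted p = 0.129) each ended that in atdamt1. As a description, the log2 differences were -0.65 and -0.63 for CYCD4-2 and -0.56 and -0.54 for CYCD6-1. That of CYCD4-2 lost its call under quantile scaling in both genotypes and with the chloroplast share in atdamt1, and that of CYCD6-1 in 9 of the alternatives in wild type and 8 in atdamt1. SCR, which encodes SCARECROW and stood here as a root marker, held 9.98 ± 1.85 RPKM in wild-type control and 1.98 ± 0.355 in heat (SD, n = 3).

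CYCD3;2, the D cyclin with the highest mean level, held 23.9, 19.0 and 19.3 RPKM in wild-type control and 17.4, 16.8 and 20.7 in heat, and 20.8, 21.1 and 18.6 in atdamt1 control and 14.9, 17.2 and 17.9 in heat. The wild-type groups overlapped and the atdamt1 groups did not. The differences of -0.17 ± 0.12 (SE, limma, adjusted p = 0.236) and -0.26 ± 0.12 (adjusted p = 0.0693) did not pass the threshold. CYCD1-1 and CYCD3-1 also did not pass it in either genotype, with differences of -0.50 to -0.17. CYCD1-1, CYCD3;2 and CYCD6-1 each overlap a gene on the opposite strand, and CYCD3-1 one on its own strand, which makes their levels uncertain.

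CDKA-1, the single CDKA and the main partner of D cyclins, held 26.5, 30.2 and 24.3 RPKM in wild-type control and 16.8, 14.9 and 17.1 in heat, and 26.3, 23.9 and 25.8 in atdamt1 control and 14.8, 15.9 and 14.6 in heat. Heat libraries were lower throughout. The fall was 0.69 ± 0.10 in wild type (SE, limma, adjusted p = 8.57e-05) and 0.71 ± 0.10 in atdamt1 (adjusted p = 6.75e-05), a ratio of means of 0.603 and 0.596. Under median-of-ratios scaling both calls were lost, at -0.22 (adjusted p = 0.0604) and -0.20 (adjusted p = 0.0818). Among the CDK-activating kinases, CDKD-3 held 8.26, 9.08 and 5.04 RPKM in wild-type control and 2.74, 2.70 and 2.96 in heat, and 7.11, 6.91 and 6.27 in atdamt1 control and 2.84, 2.71 and 3.09 in heat. Its groups did not overlap, and it fell to 0.375 of the control mean in wild type (limma, adjusted p = 9.37e-05) and to 0.426 in atdamt1 (adjusted p = 0.000199). It overlaps 2 genes on the opposite strand. CDKD-2 held 5.37, 5.05 and 4.87 RPKM in wild-type control and 3.88, 3.80 and 3.87 in heat, and 4.41, 4.25 and 5.18 in atdamt1 control and 3.22, 3.31 and 4.08 in heat. Its groups did not overlap either, but its falls of 0.33 ± 0.11 (SE, limma, adjusted p = 0.0165) and 0.31 ± 0.11 (adjusted p = 0.0217) were smaller than the median fall of all genes, and median-of-ratios scaling put them at 0.08 and 0.12. CDKD-1, which reached 1 RPKM in control libraries only, at 2.15, 1.53 and 0.657 RPKM in wild-type control and 0.694, 0.380 and 0.628 in heat, overlapped by 1 library and differed by -0.60 ± 0.21 (SE), a call lost in 8 of the alternatives. In atdamt1 it held 1.2, 0.837 and 1.07 RPKM in control and 0.309, 0.511 and 0.6 in heat, with a difference of -0.47 ± 0.21 (SE). CDKD-1 also overlaps a gene on the opposite strand.

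**Figure D2:**
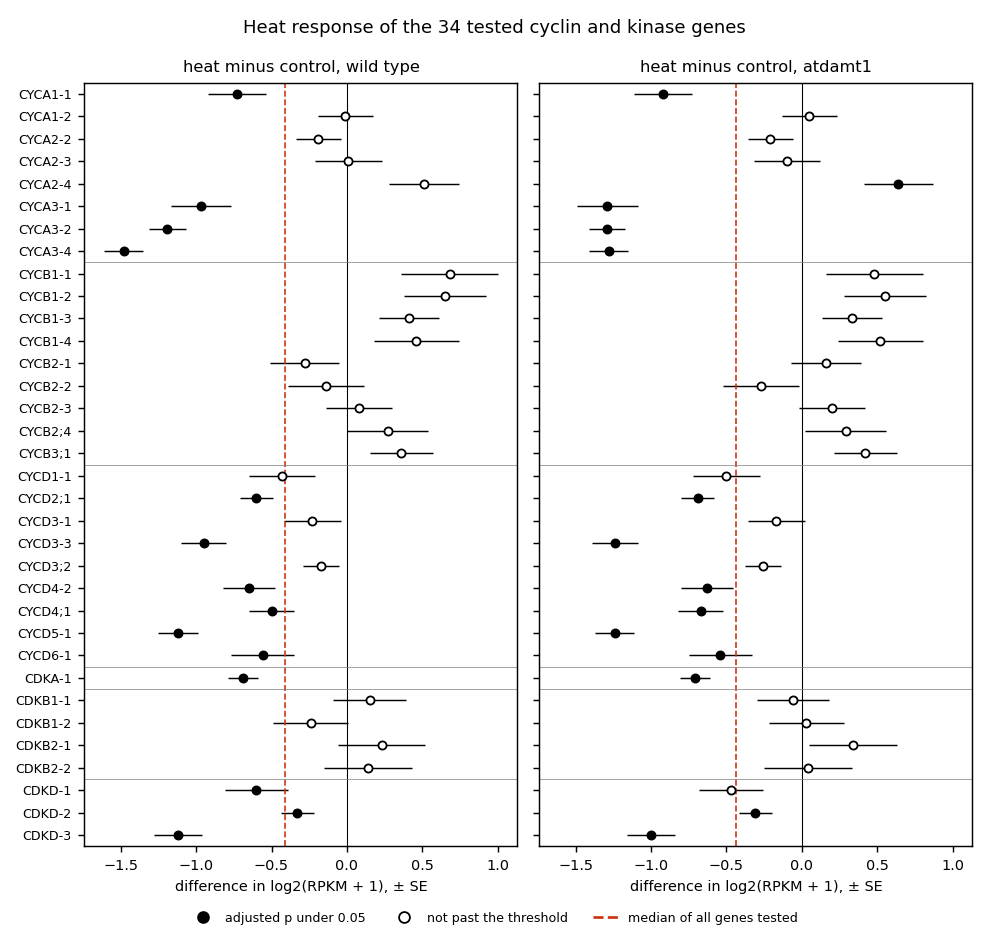
Difference in log2(RPKM + 1) between heat and control with its SE for the 34 tested genes, in wild type (left) and atdamt1 (right), grouped by class, with filled points past the threshold and a dashed line at the median of all genes tested. The CYCA3 genes lie between -1.48 and -0.97 and the CYCB1 genes between 0.33 and 0.68.

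B cyclins and CDKB kinases, the G2 and mitotic members, gave no call in either genotype on the deposited scale. CYCB1-2, the B cyclin with the highest mean level and 4 AACGG matches, held 12.7, 11.4 and 5.61 RPKM in wild-type control and 15.6, 12.9 and 17.9 in heat, and 10.5, 9.16 and 5.56 in atdamt1 control and 10.2, 14.0 and 13.4 in heat. The wild-type groups were narrowly apart, and the atdamt1 groups overlapped by 1 library. The differences were 0.65 ± 0.27 (SE, limma, adjusted p = 0.0548) and 0.55 ± 0.27 (adjusted p = 0.0917). CYCB1-1, whose promoter and destruction box are widely used to mark mitotic cells, held 2.07 to 5.71 RPKM in wild-type control and 5.11 to 7.83 in heat, and 1.58 to 4.64 and 3.63 to 5.86 in atdamt1. Over the 4 tested CYCB1 genes the differences ran from 0.41 to 0.68 in wild type and from 0.33 to 0.55 in atdamt1. The 4 tested CYCB2 genes ran from -0.28 to 0.27 and from -0.27 to 0.29. CYCB3;1 was at 0.36 and 0.42.

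CDKB2-1, a G2 and mitosis kinase with the highest mean level of the CDKB genes, held 20, 15.9 and 7.36 RPKM in wild-type control and 17.2, 12.7 and 18.3 in heat, and 12.4, 10.3 and 8.60 in atdamt1 control and 10.6, 15.2 and 14.8 in heat. The groups overlapped in both genotypes, and the differences were 0.23 ± 0.29 (SE, limma, adjusted p = 0.502) and 0.34 ± 0.29 (adjusted p = 0.313). The other 3 CDKB genes ran from -0.24 to 0.15. All 4 CDKB genes overlap a gene on the opposite strand. All 9 B cyclins and all 4 CDKB genes lay above the median change of all genes in both genotypes, as did 4 of 8 A cyclins and 2 of 9 D cyclins.

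How the calls divided into rises and falls depended on the scaling, since most genes fell relative to the library. Median-of-ratios scaling, which brings the median change of all genes to 0, gave 9 rises and 7 falls among the 34 genes in wild type, against 28% and 27.4% of all genes, and 9 rises and 9 falls in atdamt1, against 27.5% and 27.3%. In wild type the 9 were 6 B cyclins (CYCB1-1, CYCB1-2, CYCB1-3, CYCB1-4, CYCB2;4 and CYCB3;1), CYCA2-4, CYCD3;2 and CDKB2-1. In atdamt1 the 9 were the same 6 B cyclins, CYCB2-3, CYCA2-4 and CDKB2-1. On that scale CYCB1-2 was higher by 1.11 ± 0.26 in wild type (SE, limma, adjusted p = 0.00381) and by 1.04 ± 0.26 in atdamt1 (adjusted p = 0.00555). Quantile scaling gave 9 rises and 6 falls in wild type, against 22.7% and 26.5% of all genes, and 8 rises and 7 falls in atdamt1, against 23% and 29.4%. Limma voom on the recovered reads gave 4 rises and 11 falls in wild type, against 13.6% and 43.2% of all genes, and 5 rises and 11 falls in atdamt1, against 16.1% and 39.8%. Falls of CYCA3-2, CYCA3-4, CYCD3-3 and CDKD-3 passed the threshold in both genotypes under every alternative run, as did that of CYCA3-1 in atdamt1.

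Ratios between classes within 1 library do not change when the library is scaled by a common factor. Quantile scaling is not of that kind, and the ratios were taken on the deposited values only. The ratios were chosen with the values above known and are given as a description without a test. The summed B cyclins stood at 0.570, 0.514 and 0.314 of the summed D cyclins in the wild-type control libraries and at 0.995, 0.829 and 0.993 in heat, and at 0.465, 0.420 and 0.307 in atdamt1 control and 0.745, 0.890 and 0.940 in heat. Every heat library had a higher ratio of B to D cyclins than every control library, and in no library did B cyclins exceed D cyclins. The ratio of A3 to D cyclins moved the other way, from 0.333 ± 0.0166 to 0.175 ± 0.0208 in wild type and from 0.341 ± 0.00701 to 0.182 ± 0.0192 in atdamt1 (SD, n = 3). Relative to D cyclins, A3 cyclins were lower in every heat library than in every control library. The ratio of B1 to A3 cyclins was 0.856 ± 0.274 in wild-type control and 3.71 ± 0.238 in heat, and 0.750 ± 0.172 and 3.33 ± 0.819 in atdamt1 (SD, n = 3). The ratio of CDKB to CDKA was 1.54, 1.03 and 0.627 in wild-type control and 1.91, 1.63 and 2.06 in heat, and 0.892 ± 0.193 and 1.69 ± 0.214 in atdamt1 (SD, n = 3). For all A and B cyclins together, the median difference with heat exceeded that of D cyclins by 0.57 (wild type) and 0.79 (atdamt1) on the log2 scale, the latter becoming 1.28 with a pseudocount of 0.1 and 1.37 with voom. That figure mixes A3 cyclins, which fell, with A1, A2 and B cyclins, of which 1 of 14 tested fell in wild type. Its D cyclin median was the value of CYCD6-1 in wild type (-0.56) and of CYCD4-2 in atdamt1 (-0.63). Both genes reached 1 RPKM in control libraries only and so entered through the group where they were high, and the figure is a description. Within single libraries, the median log2 level of A and B cyclins minus that of D cyclins overlapped between heat and control in both genotypes. In wild type it ran from -1.04 to -0.524 in control and from -0.646 to -0.0504 in heat. In atdamt1 it ran from -1.1 to -0.747 in control and from -0.799 to -0.0765 in heat.

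**Figure D3:**
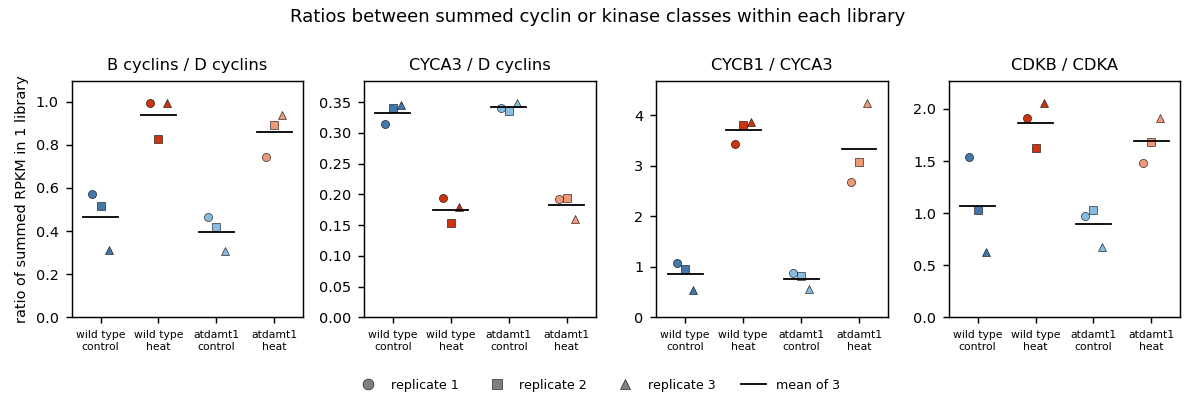
Ratio of summed RPKM between classes in each library (vertical axes, from 0), by group, with the replicate as the symbol and the mean of 3 as a line. In each panel the heat libraries stand apart from the control libraries of their genotype, with CYCA3 to D lower and the other 3 ratios higher.

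The wild-type control libraries were spread widely in the mitotic genes. Wild-type control replicate 3 was the lowest of its group in 31 of the 34 genes, including all 9 B cyclins and all 4 CDKB genes, and replicate 1 was the highest in 27. The median SD between the wild-type control libraries was 0.589 (log2 scale) for CDKB genes, 0.221 for D cyclins and 0.159 for all genes tested. In atdamt1 control, replicate 3 was the lowest for 8 of 9 B cyclins. Without wild-type control replicate 3, the count of falls in wild type went from 14 to 18, adding CYCA2-2, CYCB2-1, CYCD1-1 and CYCD3-1. Without wild-type control replicate 1, CYCA2-4, CYCB1-1, CYCB1-2, CYCB1-3 and CYCB3;1 rose in wild type (limma, adjusted p from 0.0101 to 0.038). Without atdamt1 control replicate 3, CYCB1-1 and CYCB1-2 rose in wild type, through the shared estimate of the spread. The shares of all genes called in these fits are not given here, so the counts are only a description. On the deposited scale, the calls of the B cyclins named here changed when single control libraries were left out. The ratios above have the same order with or without those libraries.

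**Figure D4:**
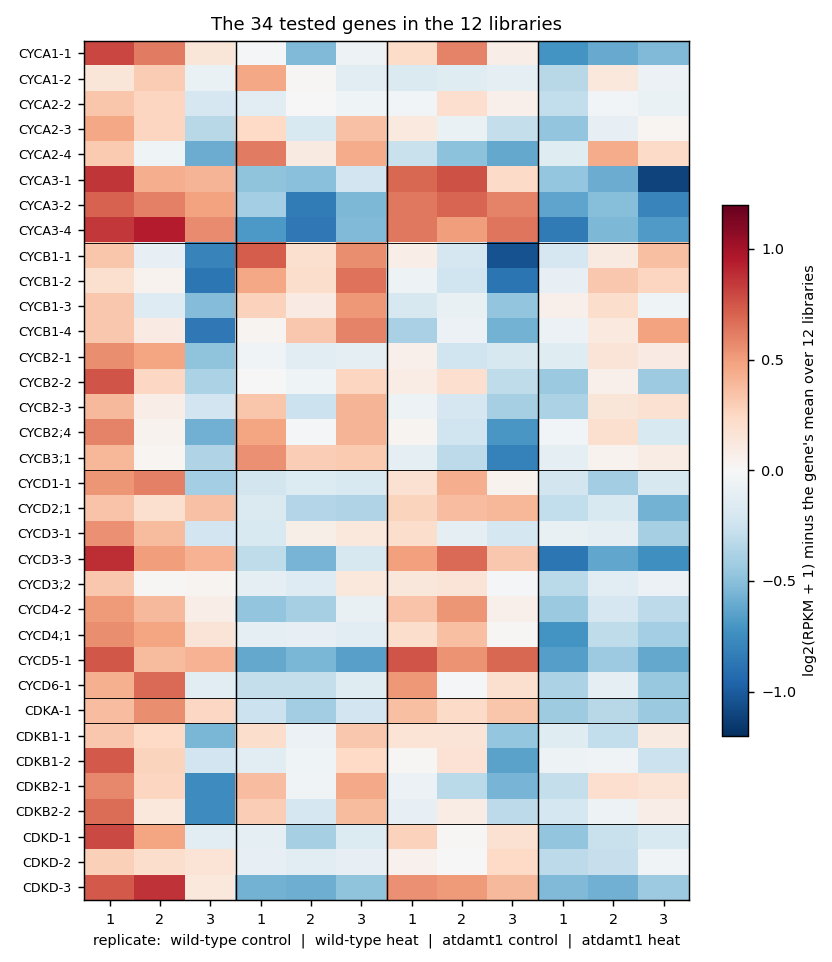
Level of the 34 tested genes (rows, grouped by class) in the 12 libraries (columns), as log2(RPKM + 1) minus the mean of that gene over all libraries. CYCA3 genes and most D cyclins are high in the 6 control libraries, and replicate 3 of both control groups is low for B cyclins and CDKB genes.

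In atdamt1, heat gave nearly the same set of calls: 1 of the 34 genes rose and 13 fell, against 10.3% and 56.2% of all genes tested. All 13 were among the 14 that fell in wild type, CDKD-1 being the other. With the chloroplast share of each library as a covariate, 7 fell and 0 rose in atdamt1, and that share was itself higher in every atdamt1 heat library than in every control library. The part of all genes called in that fit is not given here, so its counts are only a description. The difference between the heat responses of the genotypes was tested directly with limma. It passed the threshold for 0 of the 34 genes, against 0 of all 17628 genes tested. At unadjusted p under 0.05 there were 0 of the 34, against 3.38% of all genes. The difference lay between -0.32 and 0.44 on the log2 scale, below 0 in 18 of 34 genes, against 54.6% of all genes.

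Without heat, atdamt1 differed from wild type in 0 of the 34 genes at the adjusted threshold (limma), against 0.0113% of all genes, and 0 had an unadjusted p under 0.05, against 4.63%. After heat 0 passed again, against 0 of all 17628 genes tested. At unadjusted p under 0.05 there were 2, against 7.52% of all genes. These were CYCD3-3, at 5.20 against 7.12 RPKM (a difference of -0.39 ± 0.15, SE, limma, adjusted p = 0.663), and CYCD4;1, at 0.690 against 1.17 RPKM (-0.37 ± 0.15, adjusted p = 0.663). In these 3 comparisons limma voom on recovered reads called 0 of the 34 genes and 0 of all genes. Median-of-ratios scaling also called 0 of the 34. It called 0.00567% of all genes in each genotype comparison and 0% for the difference between heat responses. The estimates were below 0 in 31 of 34 genes in control and 29 of 34 after heat, where 68.2% and 70.8% of all genes were below 0. The B cyclins ran from -0.44 to -0.14 in control, with the wild-type control libraries spread as described.

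Other genes of the cell cycle were followed in 7 lists, read against the shares of all genes given above. Of the 7 KRP genes, inhibitors of cyclin-dependent kinases, 6 fell and 1 rose in wild type, and 5 fell and 1 rose in atdamt1. Median-of-ratios scaling left 4 falls in wild type and 3 in atdamt1, with 1 rise in each. KRP1 moved from 12.4 ± 1.68 to 4.65 ± 1.04 RPKM in wild type and from 15.0 ± 1.72 to 5.04 ± 0.624 in atdamt1 (SD, n = 3), a fall of 1.25 ± 0.15 (SE, limma, adjusted p = 3.03e-05) and 1.40 ± 0.15 (adjusted p = 1.23e-05). KRP2 and KRP7 fell by 1.08 and 0.61 in wild type, and KRP7 lost that call under median-of-ratios scaling (-0.26, adjusted p = 0.169). KRP4 went against its list, from 5.57 ± 0.528 to 8.84 ± 0.462 RPKM in wild type and from 5.53 ± 0.619 to 9.04 ± 1.17 in atdamt1 (SD, n = 3), a rise of 0.59 ± 0.11 (SE, limma, adjusted p = 0.000868) and 0.62 ± 0.11 (adjusted p = 0.000553).

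Of the 7 tested SIAMESE-type inhibitors, which restrain division and favour endoreduplication, 5 fell and 0 rose in wild type, and 4 fell and 1 rose in atdamt1. The wild-type falls include SMR7, which held at most 0.632 RPKM in wild-type heat and 0.634 in atdamt1 heat. It thus entered the test through the control libraries, where it was high, and the count is a description. Median-of-ratios scaling gave 3 falls and 1 rise in wild type and 2 falls and 1 rise in atdamt1. SMR1 went from 26.2 ± 4.90 to 9.05 ± 2.19 RPKM in wild type (SD, n = 3), a fall of 1.45 ± 0.20 (SE, limma, adjusted p = 6.22e-05), and SMR2 and SMR6 fell by 0.71 and 1.02. SMR2 lost its wild-type call under median-of-ratios scaling (-0.31, adjusted p = 0.0715). SIM itself rose in atdamt1, by 0.74 ± 0.29 (SE, limma, adjusted p = 0.0383), and was at 0.51 ± 0.29 in wild type (adjusted p = 0.138), where median-of-ratios scaling put it at 0.97 (adjusted p = 0.0122). Of 9 genes of the RBR1 and E2F module, 7 fell and 0 rose in each genotype, and 2 fell and 0 rose in each under median-of-ratios scaling, which left DPB and DEL1. The E2F partners DPB and DPA fell by 1.01 and 0.40 in wild type, and DEL1, a repressor of the switch to endoreduplication, by 0.91. The fall of DPA was no larger than that of a typical gene, and median-of-ratios scaling put it at 0.03.

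Of the 4 three-repeat MYB genes, whose products bind AACGG, MYB3R1 fell from 7.08 ± 0.384 to 2.43 ± 0.483 RPKM in wild type and from 5.64 ± 0.347 to 1.67 ± 0.375 in atdamt1 (SD, n = 3). The falls were 1.25 ± 0.13 (SE, limma, adjusted p = 9.67e-06) and 1.32 ± 0.13 (adjusted p = 5.9e-06), and the other 3 did not pass the threshold in either genotype. Under median-of-ratios scaling MYB3R3 and MYB3R4 rose in wild type and MYB3R5 in atdamt1. The activators of the anaphase-promoting complex, which marks cyclins for degradation, moved in both directions. CCS52A1, which promotes endoreduplication, fell from 6.30 ± 0.345 to 2.34 ± 0.402 RPKM in wild type (SD, n = 3), by 1.14 ± 0.12 (SE, limma, adjusted p = 7.61e-06). CDC20.1, the mitotic activator, was at 17.0 ± 7.79 RPKM in wild-type control and 33.3 ± 9.04 in heat (SD, n = 3), a rise of 0.99 ± 0.32 (SE, limma, adjusted p = 0.0177). Its wild-type groups overlapped, at 9.34 to 24.9 RPKM in control and 23 to 39.9 in heat. In all, 2 of the 5 activators rose and 1 fell in wild type, and 3 rose and 1 fell in atdamt1, where CCS52B rose by 0.85 ± 0.24 (SE, limma, adjusted p = 0.00737).

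Of 6 kinase partners and modifiers, 2 fell in wild type and 5 in atdamt1, and 0 rose. Under median-of-ratios scaling 3 rose and 1 fell in wild type, and 2 rose and 2 fell in atdamt1, with CKS1 at 0.30 and 0.29 and CDKF;1 at 0.32 in both among the rises. CYCH;1, the cyclin H that partners CDKD kinases, fell from 7.88 ± 0.756 to 3.84 ± 0.614 RPKM in wild type and from 7.51 ± 0.463 to 2.63 ± 0.337 in atdamt1 (SD, n = 3), by 0.88 ± 0.12 (SE, limma, adjusted p = 6.62e-05) and 1.23 ± 0.12 (adjusted p = 5.41e-06). WEE1, an inhibitory kinase of the replication checkpoint, fell by 0.80 and 0.88, and lost the wild-type call under median-of-ratios scaling (-0.47, adjusted p = 0.0524). CDC25 fell by 0.39 in atdamt1 and was at -0.15 in wild type, and both values turned above 0 under median-of-ratios scaling. Of 13 mitosis and cytokinesis genes, 2 rose and 0 fell in wild type and 3 rose and 0 fell in atdamt1. Median-of-ratios scaling gave 9 rises and 0 falls in each genotype. SYP111, the syntaxin KNOLLE of the cell plate, was at 20 ± 8.42 RPKM in wild-type control and 39.5 ± 7.46 in heat, and at 15.8 ± 3.21 and 30.9 ± 3.43 in atdamt1 (SD, n = 3), a rise of 1.02 ± 0.27 (SE, limma, adjusted p = 0.00597) and 0.94 ± 0.27 (adjusted p = 0.0089). AUR3, an Aurora kinase of chromosomes, rose by 0.94 and 0.66, and EDE1, a microtubule-associated protein of mitotic arrays, by 0.54 in atdamt1.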

How the data were processed

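RNA was measured in 12 seedling libraries, grouped and numbered as labelled. The authors deposited RPKM values for 32833 genes. The submitters' processing notes name STAR, DESeq2 and TAIR10 but give them no role. The kit was directional, per the labels' protocols. How reads were counted, with which strand setting and annotation, was not given in the sources used here.

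RPKM values multiplied by the exon-union length in TAIR10.1 gave whole reads in all 12 libraries for 24372 (99.08%) of 24599 nuclear genes above 0, within 0.1 reads, which gave the depths. Precision covers counting and replicate spread only. No pair of replicates agreed within sampling noise (chi-square per degree of freedom 9.44 to 34.4).

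The 17628 genes that reached 1 RPKM in 3 or more libraries were tested as log2(RPKM + 1), a scale that understates changes of low genes. Limma 3.58.1 in R 4.3.3 fitted 1 mean per group over all 12 libraries with a mean-variance trend and 8 residual degrees of freedom. The 5 contrasts were two-sided with Benjamini-Hochberg adjustment over all genes, and an adjusted p under 0.05 counted as a rise or fall. The fit was tested on simulated data in which few genes changed, evenly up and down. That test does not cover a shift of most genes such as the one seen here. Tables were made with pandas 2.3.3, scipy 1.17.1 and numpy 2.4.6 under Python 3.11.15.

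The members and lists were chosen with earlier results of these data known, and the promoter window was set last. Values in each library are given for members past the threshold in any contrast, by smallest adjusted p, and for the member of each class with the highest mean RPKM, 24 at most. From each list up to 3 genes past the threshold with the smallest adjusted p are named, or the 1 with the smallest p, and those against their list. CYCB1-1, and other genes named beyond these, were chosen after their values were seen. Alternatives were another pseudocount, no filter, median-of-ratios and quantile scaling, a replicate block, single-contrast fits, limma voom on recovered reads, the chloroplast share as a covariate and each library left out. Proteins and the motifs within them were not analysed here. A withheld promoter result is not reported here.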

Additional observations from a re-analysis of the deposited data

How the results depend on the processing

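Alternatives were run for the counts of members in each comparison, for the difference between the medians of A and B cyclins and of D cyclins, and for each named gene. In wild type, rises numbered 0 and became 9 (median-of-ratios), 9 (quantile), 4 (voom on recovered reads) and 1 (chloroplast share as a covariate). Falls numbered 14 and became 7 (median-of-ratios) and 6 (quantile). In atdamt1, rises numbered 1 and became 9, 8 and 5 under median-of-ratios, quantile and voom, 2 in the fit of the groups compared, and 0 with the chloroplast share, and falls numbered 13 and became 7 under quantile scaling and 7 with the chloroplast share. Leaving out 1 library gave 0 to 5 rises and 11 to 18 falls in wild type, and 0 to 3 rises and 11 to 15 falls in atdamt1. Shares of all genes are not given for the fits with a library left out, the covariate or only the groups compared. Those counts are only a description. Rises in wild type numbered 5 without wild-type control replicate 1, 2 without atdamt1 control replicate 3, and 1 without wild-type control replicate 2 or wild-type heat replicate 2. Rises in atdamt1 numbered 3 without wild-type control replicate 3, 2 without atdamt1 control replicate 1, and 0 without atdamt1 control replicate 2 or 3 or atdamt1 heat replicate 2 or 3. The median difference in atdamt1, 0.79, became 1.28 with a pseudocount of 0.1 and 1.37 with voom.

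Direction turned under median-of-ratios scaling for CYCD3;2 in wild type (0.31), CDKD-2 (0.08 in wild type, 0.12 in atdamt1), DPA in wild type (0.03) and CDC25 (0.33 and 0.13). It also turned for CKS1, from -0.18 to 0.30 in wild type, and for CDKF;1, from -0.12 and -0.16 to 0.32 in both genotypes. The fall of CKS1 in atdamt1 (-0.23, limma, adjusted p = 0.0285) became a rise (0.29, adjusted p = 0.00589). Under quantile scaling, direction turned for CDKD-2 (0.21 and 0.18) and DPA in wild type (0.10). Median-of-ratios and quantile scaling move the median of all genes to about 0 by construction. The cause of the other changes was not tested. Correlations of deviations from the group mean ran from -0.425 to 0.527 for same-numbered libraries and from -0.412 to 0.41 for differently numbered ones. Replicate numbers thus gave no general pairing, but the highest value was between replicate 3 of wild-type control and replicate 3 of atdamt1 control. With the replicate number as a block, 0 members rose and 14 fell in wild type, 1 rose and 13 fell in atdamt1, and no call of a named gene changed. The genotype comparisons and the difference between heat responses gave 0 members under every alternative.

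Depth limits the lowest members: CYCD4-2 held 4 to 15 recovered reads per wild-type heat library.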
